A study of Homo sapiens with 12 samples.

Results

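Losing carnitine palmitoyltransferase 1 (CPT1) to a hairpin was set against blocking it with a drug, in the same cell line and on the same array platform. The arrays were taken by their labels: the 3 arrays of cells with a hairpin against CPT1 (shCPT-1) and the 3 arrays of cells with a scrambled hairpin that received ETX, together 6 of the 12 arrays of the series. ETX is not spelled out in the labels and is read here as etomoxir, an inhibitor of CPT1. All cells were MDA231 (MDA-MB-231), an established human line from a triple-negative breast cancer, and the labels describe the hairpins as pGIPZ lentiviral constructs. The other 6 arrays were 3 with a hairpin against CPT2 (shCPT-2) and 3 with the scrambled hairpin and no named treatment (scramble), and they serve here to show where the levels lie without drug or CPT1 hairpin. The shCPT-1 arrays therefore lack both the scrambled hairpin and the drug that the ETX arrays share, so hairpin, drug and cell line derivation cannot be told apart in the direct comparison. How much ETX the arrayed cells received and for how long, which CPT1 isoform the hairpin targets, and how many hairpin sequences or clones were used are points the labels leave unstated. The labels also do not say whether replicate arrays stem from separate cultures, so the spread behind each p-value may be technical.

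CPT1 sits in the outer mitochondrial membrane and joins long-chain acyl groups to carnitine, the committed step of their entry for beta-oxidation. The carrier SLC25A20 then exchanges acylcarnitine for carnitine across the inner membrane, where CPT2 returns the acyl group to coenzyme A. A hairpin lowers the amount of messenger RNA, whereas etomoxir, once joined to coenzyme A in the cell, binds the enzyme and leaves its messenger RNA in place. Fatty acids are also ligands of the PPAR nuclear receptors, whose known targets include CPT1A itself.

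Values are log2 intensities, a relative scale for 1 probe set across arrays, and differences are shCPT-1 minus ETX with the standard error (SE) of a limma fit, n = 3 arrays a group. Calls required an adjusted p (Benjamini-Hochberg over 12886 tested genes) under 0.05. Array medians lay between 75.6 and 75.8 intensity units in shCPT-1 and between 74.9 and 76.5 with ETX. Arrays of a group correlated at 0.9945 to 0.9989 across the tested genes. One array in each group lay apart from the other 2 (shCPT-1 1, ETX 3, shCPT-2 2 and scramble 3). The difference between the 3′ and 5′ actin control probe sets, a sign of RNA integrity, averaged 1.73 ± 0.23 in shCPT-1, 1.75 ± 0.06 with ETX and 2.07 ± 0.27 in scramble (log2, SD, n = 3), and the part of that gap in changes against scramble was not tested. All 8 markers fixed for the line, among them VIM and CD44, exceeded the array median on all 6 arrays. Of the markers expected to be low, 2 of 6 did so, and of those of leukocytes 1 of 6, of endothelium 3 of 8 and of fibroblasts 1 of 8.

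CPT1A, the liver-type isoform, lay on opposite sides of scramble under hairpin and drug. Its log2 intensity was 8.11, 8.10 and 8.34 on the shCPT-1 arrays, 10.90, 10.80 and 10.97 on the ETX arrays, 9.58, 9.60 and 9.48 on the shCPT-2 arrays and 9.64, 9.84 and 9.86 on the scramble arrays. The highest shCPT-1 array was below every scramble array and the lowest ETX array was above every scramble array. The direct difference was -2.71 ± 0.08, 6.53-fold lower in shCPT-1 (adjusted p = 2.81e-10), made up of -1.59 against scramble in shCPT-1 and 1.11 against scramble with ETX. The other kept probe sets of CPT1A differed in the same direction by -2.37 and -1.36, so the size given is the largest of the 3. In these bulk samples fewer expressing cells and less RNA per cell cannot be told apart.

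SLC25A20, the carnitine-acylcarnitine carrier, read 8.29, 8.16 and 8.16 in shCPT-1, 9.25, 9.26 and 9.30 with ETX and 8.04, 8.06 and 8.06 in scramble. The ETX arrays were the high ones, and shCPT-1 was 1.07 ± 0.06 below them on the log2 scale (adjusted p = 2.77e-08). CROT, the peroxisomal carnitine octanoyltransferase, and SLC22A5, the plasma membrane carnitine transporter, were also lower in shCPT-1, with differences of -0.39 and -0.33. CPT2 read 7.81, 7.62 and 7.45 in shCPT-1 and 7.69, 7.71 and 7.64 with ETX. These groups overlapped, with a difference of -0.06 and a 95% interval of -0.27 to 0.16 (adjusted p = 0.691). CPT1C, the brain-type isoform, was 0.25 ± 0.07 higher in shCPT-1 (adjusted p = 0.0139), at 8.45, 8.76 and 8.73 against 8.37, 8.37 and 8.46 with ETX. Array shCPT-1 1 lay below the highest ETX array for CPT1C, and the call was lost without shCPT-1 2 (adjusted p = 0.0691) or shCPT-1 3 (adjusted p = 0.0642). SLC25A29, a mitochondrial carrier of basic amino acids, was the other higher gene (0.17). Of 8 measured carnitine shuttle genes 2 were called higher, a count that was 0 without shCPT-1 2 or shCPT-1 3 and 1 without ETX 1, ETX 2, shCPT-2 3 or scramble 1, and 4 lower, where 42.7% of all tested genes were called either way, 22.9% higher and 19.8% lower. CPT1B is not analysed here.

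**Figure D1:**
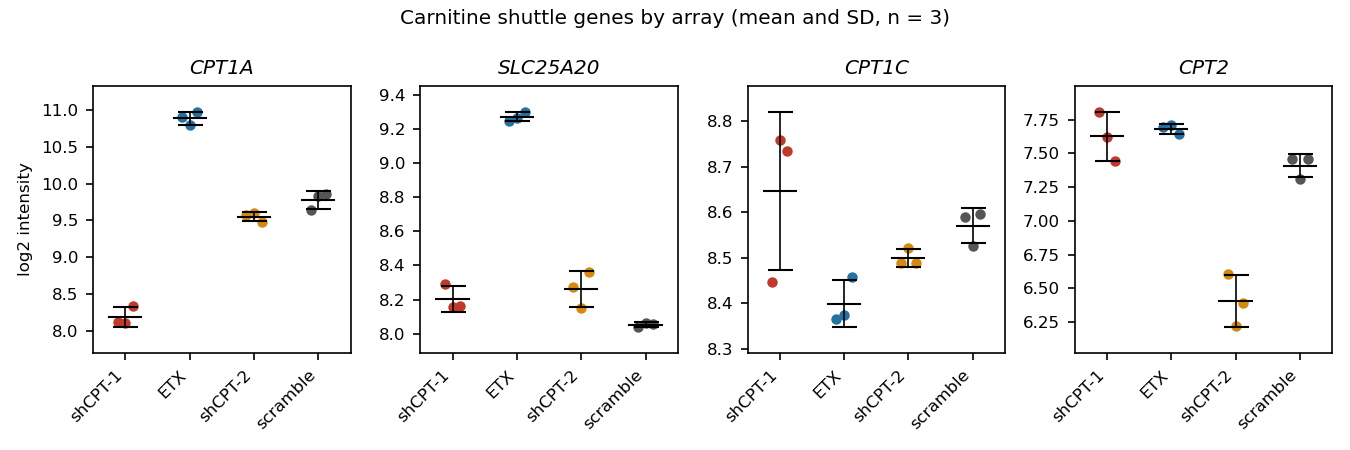
Log2 intensity (y axis) of 4 carnitine shuttle genes on each array, by group (x axis), with points for arrays and bars for the mean and SD of 3 arrays. CPT1A is lowest in shCPT-1 and highest with ETX, SLC25A20 is high with ETX alone, and CPT2 is low in shCPT-2, at 6.61, 6.22 and 6.39.

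Many genes differed between the hairpin and the drug, most of them by little. Of 12886 genes, 2955 were higher and 2550 lower in shCPT-1 than with ETX. Among called genes the median size of the difference was 0.31 on the log2 scale, and 4301 of them (78.1%) differed by less than 0.5. The 3 shCPT-1 and 3 ETX arrays did not overlap for 54.3% of tested genes. At least 2-fold, 81 genes were higher (0.629% of those tested) and 145 lower (1.13%), and at least 4-fold, 4 were higher and 28 lower. Of the 81 genes, 15 had an ETX mean under the array medians, and of the 145 genes, 30 had a shCPT-1 mean under the array medians, where a fold is less certain. Over all tested genes the median difference was 0.02, with quartiles of -0.13 and 0.16. Against scramble, 41.1% of genes were called in shCPT-1 and 41.3% with ETX. These comparisons share the scramble arrays, so their values are set side by side below without a measure of overlap.

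**Figure D2:**
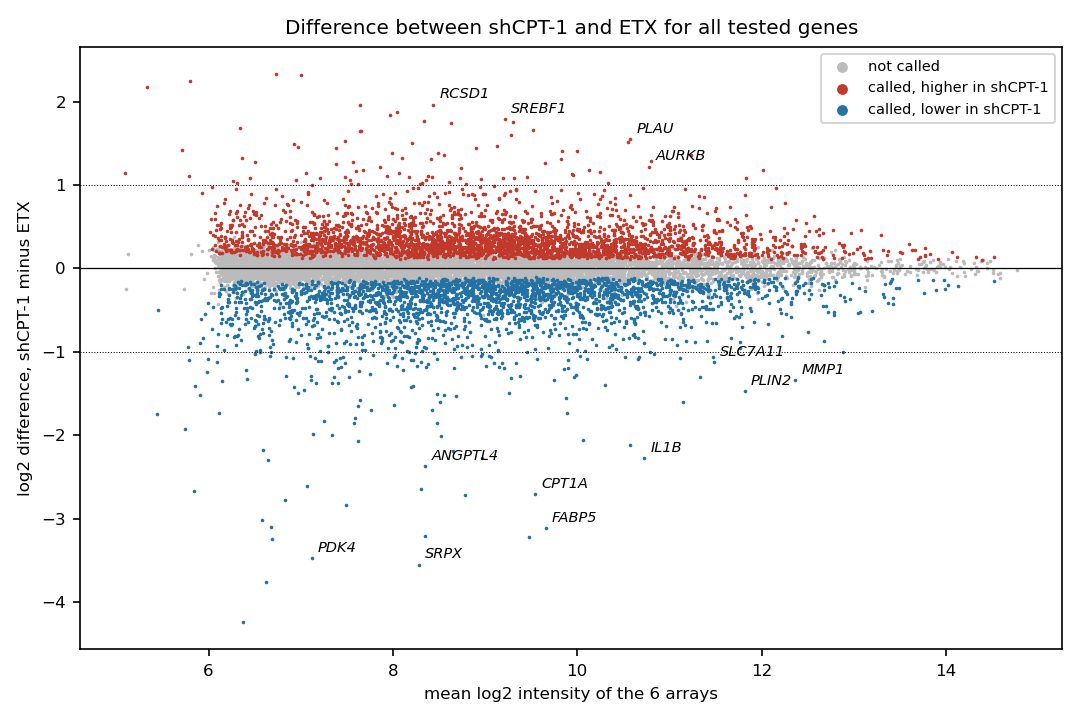
Log2 difference, shCPT-1 minus ETX (y axis), against the mean log2 intensity of the 6 arrays (x axis) for all 12886 tested genes, with called genes coloured and dotted lines at 2-fold. The cloud is centred near 0 and reaches farther below than above, with 145 genes at least 2-fold lower and 81 at least 2-fold higher.

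SREBF1, the sterol regulatory element-binding protein that drives lipid synthesis genes, was among the 15 genes with the largest positive differences. It read 10.04, 10.11 and 10.18 in shCPT-1, 8.41, 8.38 and 8.18 with ETX and 9.06, 9.08 and 8.92 in scramble, a difference of 1.79 ± 0.07 (adjusted p = 1.54e-09). Scramble lay between the groups, with changes against it of 1.09 in shCPT-1 and -0.70 with ETX, both called. RCSD1, which codes for a protein that binds actin capping protein, had the largest difference under the naming rule. It read 9.37, 9.46 and 9.43 in shCPT-1 and 7.43, 7.52 and 7.42 with ETX (1.96 ± 0.07, adjusted p = 1.21e-09), with scramble between them at 8.24 to 8.46. PLAU, the urokinase plasminogen activator, read 11.38, 11.32 and 11.34 in shCPT-1, 9.71, 9.82 and 9.86 with ETX and 10.75, 10.81 and 10.70 in scramble (1.55 ± 0.05, adjusted p = 5.61e-10). The same order, shCPT-1 above scramble and ETX below it with both changes called, held for KRT80, a keratin (0.85 and -0.90 against scramble), and BHLHE40, a transcriptional repressor induced by hypoxia (0.81 and -0.78). It also held for CNTROB, a centriole protein (0.85 and -0.56), L1CAM, a cell adhesion molecule (1.44 and -0.31), and ID1, an inhibitor of DNA binding downstream of BMP receptors (1.12 and -0.35). Other kept probe sets gave smaller differences between shCPT-1 and ETX in the same direction. They were 0.55 for SREBF1, 0.28 for RCSD1, 0.36 for L1CAM and 0.58 and 0.76 for CNTROB, while that of PLAU gave 1.54.

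For other genes in the same group, the shCPT-1 arrays stood apart while ETX lay -0.33 to 0.29 from scramble. MATN2, an extracellular matrix protein, read 8.86, 8.82 and 8.98 in shCPT-1, 7.12, 7.10 and 6.93 with ETX and 7.01, 7.17 and 6.96 in scramble (1.83 ± 0.08, adjusted p = 3.32e-09). It was also high in shCPT-2, at 9.14, 8.95 and 9.13. AFAP1-AS1, a long noncoding RNA antisense to AFAP1, read 8.80, 8.98 and 9.18 in shCPT-1 and 7.16, 7.11 and 7.06 with ETX, and it was higher still in shCPT-2 at 9.40, 9.58 and 9.57. TRAPPC1, a subunit of a vesicle tethering complex, followed with 1.51 ± 0.06 and SFTA3 with 1.502 ± 0.06. MELTF, the iron-binding melanotransferrin, differed by 1.45 ± 0.07. EEF1A2, a translation elongation factor, differed by 1.76 but with the largest SE of the group at 0.23, and its ETX arrays read 7.29, 7.02 and 8.05. PTGES, an enzyme that makes prostaglandin E2, was higher in shCPT-1 at 10.22, 10.45 and 10.39 than with ETX at 8.72, 8.65 and 8.71 (1.66 ± 0.13, adjusted p = 6.14e-07). In shCPT-2 PTGES was low, at 7.78, 7.11 and 7.38. Other kept probe sets gave smaller differences between shCPT-1 and ETX here too, 0.74 for PTGES, 1.25 for AFAP1-AS1 and 1.11 and 0.11 for MELTF. The last of these did not pass.

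The largest negative differences were larger than the positive ones and, apart from CPT1A described above, are given here in 2 forms. In the more common form, shCPT-1 was far below scramble and ETX lay -0.46 to 0.64 from it. With ETX, AMPH (0.64), FAT3 (0.50) and EHF (0.27) lay above scramble, as CPT1A did, and FAM133A (-0.46) lay below it. FABP5, a fatty acid-binding protein, read 8.03, 8.12 and 8.15 in shCPT-1, 11.16, 11.23 and 11.26 with ETX and 11.14, 11.14 and 11.21 in scramble (-3.12 ± 0.05, adjusted p = 1.21e-12). SRPX, a sushi-repeat protein, read 6.39, 6.69 and 6.43 in shCPT-1 against 10.04, 10.05 and 10.08 with ETX (-3.55 ± 0.07, adjusted p = 9.09e-12). PLCB1, a phospholipase C that cleaves membrane phosphoinositides, read 6.45, 6.91 and 6.88 in shCPT-1 against 10.02, 9.94 and 9.90 with ETX (-3.20 ± 0.12, adjusted p = 1.24e-09). The shCPT-2 arrays were also low for these genes, at 9.30 to 9.39 for FABP5, 7.29 to 7.48 for SRPX and 5.63 to 6.01 for PLCB1. FAT3, an atypical cadherin (-3.22), FAM133A (-2.72), OLFML3, a secreted olfactomedin-like protein (-2.65), and SVIP, an inhibitor of protein export from the endoplasmic reticulum for degradation (-2.19), were lower too. So were SHISA2, a regulator of WNT and FGF receptor maturation (-2.12), KYNU, the kynureninase of tryptophan breakdown (-2.06), and EHF, an epithelial ETS factor (-2.27). AMPH, a membrane-bending protein of endocytosis, was lower by -2.83, with its shCPT-1 level under the array medians.

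In the other form, ETX was high and the shCPT-1 change against scramble was not called. PDK4, a kinase that restrains pyruvate dehydrogenase, read 5.17, 5.59 and 5.37 in shCPT-1, 8.75, 9.16 and 8.66 with ETX and 5.06, 4.87 and 5.15 in scramble (-3.48 ± 0.17, adjusted p = 1.14e-08). Its shCPT-1 and scramble levels were under the array medians, which limits the size of that difference. ANGPTL4, an inhibitor of lipoprotein lipase, read 7.13, 7.203 and 7.16 in shCPT-1, 9.50, 9.61 and 9.49 with ETX and 7.41, 7.31 and 7.25 in scramble (-2.37 ± 0.07, adjusted p = 5.61e-10). IL1B, the cytokine interleukin-1 beta, read 9.78, 9.48 and 9.51 in shCPT-1, 11.89, 11.89 and 11.81 with ETX and 9.75, 9.82 and 10.07 in scramble (-2.28 ± 0.11, adjusted p = 1.81e-08). For ANGPTL4 and IL1B the shCPT-1 change against scramble did not pass (-0.16, adjusted p = 0.11, and -0.29, adjusted p = 0.062).

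**Figure D3:**
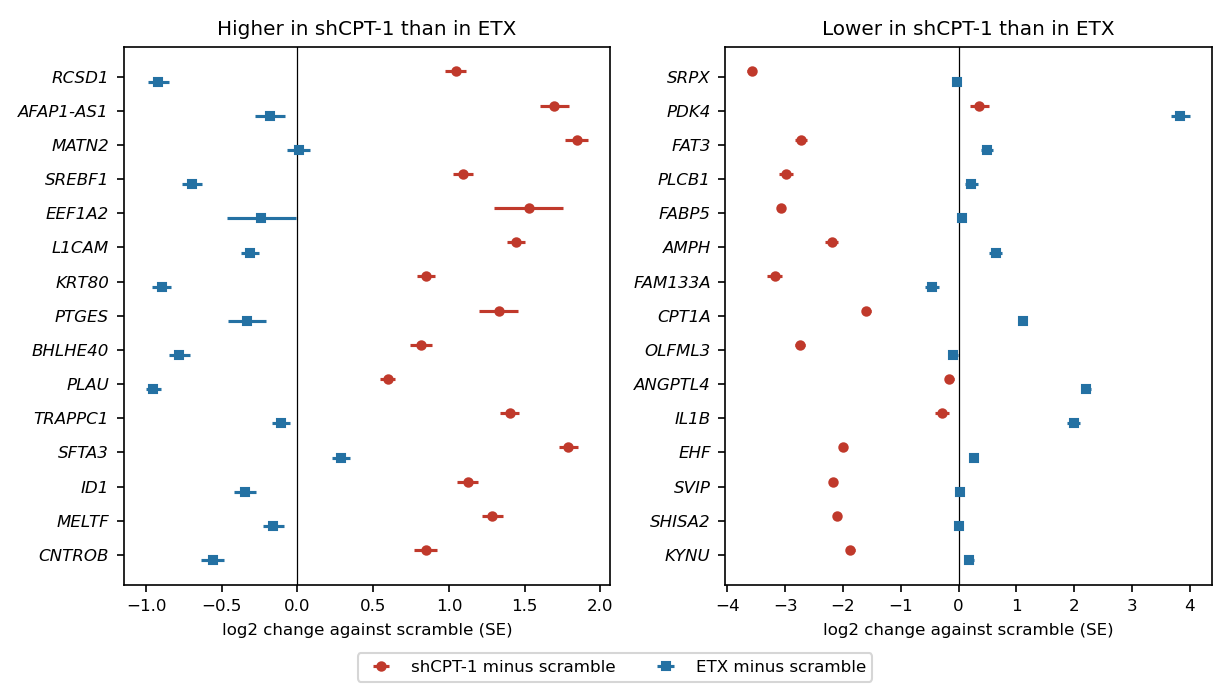
Log2 change against scramble (x axis, bars are the SE) in shCPT-1 and with ETX for the 15 genes with the largest positive (left) and the 15 with the largest negative (right) differences between them under the naming rule. RCSD1, SREBF1, KRT80, BHLHE40, PLAU and CPT1A have changes of opposite sign, PDK4, ANGPTL4 and IL1B moved with ETX, and SRPX, FABP5 and SHISA2 moved in shCPT-1.

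PPAR targets and lipid droplet genes were lower in shCPT-1 than with ETX where the differences were large. Of 22 measured members 10 were lower and 5 higher (68.2% called). Of all tested genes 42.7% were called, 19.8% lower and 22.9% higher. The list's median difference was -0.17, against 0.02 over all tested genes. Beside PDK4, ANGPTL4 and FABP5, PLIN2, the main coat protein of lipid droplets, read 11.21, 11.03 and 11.01 in shCPT-1, 12.53, 12.58 and 12.55 with ETX and 10.41, 10.41 and 10.72 in scramble (-1.47 ± 0.08, adjusted p = 3.68e-08). PLIN2 was thus above scramble in both, by 0.57 in shCPT-1 and 2.04 with ETX. G0S2, an inhibitor of adipose triglyceride lipase, read 12.09, 12.17 and 12.10 in shCPT-1 against 12.88, 12.87 and 12.89 with ETX (-0.76 ± 0.04). The 5 higher members differed by little: HILPDA and PNPLA2 by 0.26 each, PLIN3 by 0.25, MGLL by 0.24 and UCP2 by 0.23. A PPAR element of the direct-repeat type with a spacer of 1 base was sought on either strand. None of the 16 list genes with a RefSeq promoter sequence held it, where 0.029% of 27305 genes with such a sequence did. That says only that these letters are not in a window of 250 bases before to 50 after the start.

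Genes of fatty acid synthesis were mostly higher in shCPT-1. Of 18 measured members 10 were higher and 2 lower (66.7% called, beside 42.7% of all tested genes), with a median difference of 0.17. FASN, the fatty acid synthase, read 10.65, 10.66 and 10.69 in shCPT-1, 10.02, 10.01 and 10.08 with ETX and 10.70, 10.61 and 10.58 in scramble (0.64 ± 0.04, adjusted p = 3.01e-07). For FASN the ETX arrays were the low ones, with a change of -0.59 against scramble, while shCPT-1 lay 0.04 above scramble. ELOVL7, a fatty acid elongase, showed the other arrangement, at 8.79, 8.84 and 8.86 in shCPT-1, 7.85, 7.78 and 7.78 with ETX and 7.80, 7.81 and 7.83 in scramble (1.03 ± 0.04). SCD, the stearoyl-CoA desaturase, was above scramble in shCPT-1 (0.55) and below it with ETX (-0.18), a difference of 0.73 ± 0.05. The 2 lower members were FABP5 and ME1, the cytosolic malic enzyme that makes NADPH (-0.41).

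Cholesterol synthesis genes split. Of 20 measured members 5 were higher and 8 lower (65% called, beside 42.7% of all tested genes), with a median difference of -0.02. SC5D, the sterol C5 desaturase, read 8.87, 8.89 and 8.81 in shCPT-1 against 9.65, 9.63 and 9.62 with ETX (-0.77 ± 0.06). SQLE, the squalene epoxidase, and HMGCS1, the HMG-CoA synthase, were lower by -0.34 and -0.32. SREBF2, the regulator of the sterol genes, and LSS, the lanosterol synthase, were higher by 0.35 each. The count of higher members depended on single arrays, with 2 left without ETX 1, without ETX 2 or without shCPT-1 2, and 3 without shCPT-1 1 or shCPT-1 3.

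Enzymes of beta-oxidation differed in both directions, 6 of 23 higher and 5 lower, a share of 47.8% called beside 42.7% over all tested genes. ECHS1, the short-chain enoyl-CoA hydratase, read 11.55, 11.52 and 11.49 in shCPT-1, 10.99, 10.99 and 11.01 with ETX and 11.20, 11.24 and 11.23 in scramble (0.52 ± 0.04, adjusted p = 5.4e-07). ECI1, an enoyl-CoA isomerase (0.41 ± 0.05), and EHHADH, the peroxisomal bifunctional enzyme (0.51 ± 0.09), were also higher in shCPT-1. The ETX and scramble levels of EHHADH were under the array medians. ACAD9, an acyl-CoA dehydrogenase that also serves complex I assembly, was higher by 0.56, a call that was lost (0.23, adjusted p = 0.0985) without cross-hybridising kinds of probe sets. ACAA2, the mitochondrial thiolase, was lower by -1.18 ± 0.12, at 8.72, 8.53 and 8.43 in shCPT-1 and 9.72, 9.78 and 9.73 with ETX. This rests on its cross-hybridising kinds of probe sets, and without them the difference of ACAA2 was 0.08 and did not pass (adjusted p = 0.43).

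Of 21 measured glycolysis genes 10 were higher in shCPT-1 and 0 lower, 47.6% called beside 42.7% of all tested genes, with a median difference of 0.13, and 1 was called lower under 6 alternatives, such as the fit on only the 6 arrays compared. ENO2, an enolase, read 10.38, 10.46 and 10.47 in shCPT-1, 9.71, 9.70 and 9.83 with ETX and 9.98, 10.01 and 9.94 in scramble (0.69 ± 0.05). PFKFB4, which sets the level of fructose 2,6-bisphosphate, differed by 0.68 ± 0.05, with shCPT-1 0.03 and ETX -0.66 from scramble. PFKL, the liver phosphofructokinase (0.37), SLC2A1, the glucose transporter GLUT1 (0.30), and ALDOA, an aldolase (0.22), were higher by less. Genes induced by hypoxia showed 14 of 23 higher and 2 lower (69.6% called), with a median difference of 0.26. BNIP3, a mitochondrial protein of mitophagy, read 12.68, 12.61 and 12.64 in shCPT-1, 11.71, 11.71 and 11.61 with ETX and 11.76, 11.74 and 11.72 in scramble (0.97 ± 0.05, adjusted p = 2.04e-08). CA12, a carbonic anhydrase (0.89 ± 0.08), and LOX, the lysyl oxidase (0.69 ± 0.04), were higher as well. Other kept probe sets of CA12 ranged from 0.02 to 1.07. VEGFA, the vascular growth factor, was the other lower gene (-0.36), and the count of lower members was 1 without ETX 1, ETX 2 or shCPT-1 2. ADM, the peptide adrenomedullin, went the other way, at 10.58, 10.69 and 10.76 in shCPT-1, 11.94, 11.98 and 12.02 with ETX and 12.10, 12.05 and 12.05 in scramble (-1.31 ± 0.06, adjusted p = 6.71e-09). Of 38 oxidative phosphorylation genes 8 were higher and 6 lower, 36.8% called, and the count of higher members was 5 without ETX 1 and likewise without both shCPT-1 1 and ETX 3.

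Target genes of ATF4, the factor that answers amino acid shortage and other stress, were lower in shCPT-1 than with ETX in 24 of 36 measured members, and 2 were higher. The list's median difference was -0.29, and 72.2% of its members were called, beside 42.7% of all tested genes. Both groups lay above scramble, with list medians of 0.24 in shCPT-1 and 0.69 with ETX. Promoters of an asparagine synthetase (ASNS) and a neutral amino acid transporter (SLC1A4) are shown because both genes were among the 5 called members of the list with the smallest p, and both hold the ATF4 element TGATGNAA, printed in capitals. They are RefSeq sequences on GRCh38.p14, read 5′ to 3′ along the gene from 250 bases before its start to 50 after it, at chr7:97872359-97872658 on the minus strand for ASNS and chr2:64989149-64989448 on the plus strand for SLC1A4.
ASNS: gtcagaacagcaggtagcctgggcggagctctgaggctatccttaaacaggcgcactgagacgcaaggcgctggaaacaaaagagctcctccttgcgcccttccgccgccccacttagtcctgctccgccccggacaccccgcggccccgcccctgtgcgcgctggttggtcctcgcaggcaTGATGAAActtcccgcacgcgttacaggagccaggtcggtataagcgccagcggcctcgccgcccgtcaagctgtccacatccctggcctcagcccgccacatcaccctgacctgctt
SLC1A4: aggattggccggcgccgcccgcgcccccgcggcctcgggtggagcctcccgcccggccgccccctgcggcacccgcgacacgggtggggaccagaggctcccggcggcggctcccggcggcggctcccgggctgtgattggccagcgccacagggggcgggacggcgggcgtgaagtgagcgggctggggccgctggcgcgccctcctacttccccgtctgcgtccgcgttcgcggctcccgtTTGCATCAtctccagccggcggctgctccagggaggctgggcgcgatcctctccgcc
The element begins 68 bases before the start in ASNS and 7 bases before it in SLC1A4, where it lies on the opposite strand. Searched on both strands, it was in 10 of the 31 list genes with a promoter sequence (32.3%), beside 4.457% of 27305 genes with such a sequence. Of the 20 lower list genes among them 8 held it. The list is of ATF4 target genes, so a higher share can come from that choice and was not tested. A match is a description of the sequence and not of binding.

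ASNS read 10.59, 10.50 and 10.51 in shCPT-1, 11.36, 11.37 and 11.40 with ETX and 9.63, 9.71 and 9.75 in scramble, a difference of -0.84 ± 0.05 (adjusted p = 4.83e-08). The 3 groups did not overlap, and shCPT-1 lay between the others. SLC1A4 read 8.37, 8.21 and 8.28 in shCPT-1, 9.17, 9.20 and 9.27 with ETX and 8.23, 8.26 and 8.29 in scramble (-0.93 ± 0.05, adjusted p = 5.11e-08), so that shCPT-1 overlapped scramble and the ETX arrays were the high ones. SLC7A11, the cystine importer, had the smallest p of the list, at 10.95, 10.91 and 10.91 in shCPT-1, 12.002, 12.09 and 12.06 with ETX and 10.67, 10.72 and 10.80 in scramble (-1.13 ± 0.05, adjusted p = 3.68e-09). Its heavy chain partner SLC3A2 differed by -0.85 ± 0.06 and CEBPB, a bZIP transcription factor, by -0.81 ± 0.04. The 2 higher members were GDF15, a stress cytokine of the TGF-beta family (0.29), and DDIT4, an inhibitor of mTORC1 (0.40), and 1 higher member was left without ETX 1. Aminoacyl-tRNA synthetases charge transfer RNAs with amino acids. Of 17 measured, 10 were lower and 1 was higher in shCPT-1 (64.7% called, beside 42.7% of all tested genes). SARS1 read 11.003, 10.78 and 10.74 in shCPT-1, 11.47, 11.48 and 11.41 with ETX and 10.32, 10.43 and 10.68 in scramble (-0.61 ± 0.09). Another kept probe set of SARS1, at 9.63 in shCPT-1 and 9.72 with ETX, gave -0.08 and did not pass (adjusted p = 0.215). WARS1 differed by -0.52 and YARS1 by -0.31. KARS1 was the higher one (0.21).

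Endoplasmic reticulum chaperone and unfolded protein genes were lower in shCPT-1 in 14 of 22 members and higher in 2. That is 72.7% called, beside 42.7% of all tested genes, with a median difference of -0.25. DNAJB9, a co-chaperone, read 8.61 on each shCPT-1 array, 9.80, 9.89 and 9.71 with ETX and 8.72, 8.76 and 8.65 in scramble (-1.19 ± 0.06, adjusted p = 2.77e-08). ERN1, the sensor IRE1, was lower by -0.90 ± 0.07, and HERPUD1, a part of the degradation machinery of that compartment, by -0.57 ± 0.05. Other kept probe sets gave -0.53 and 0.06 for ERN1 and -0.07 for HERPUD1, of which 0.06 and -0.07 did not pass. HYOU1, a chaperone, was also lower by -0.57, but there ETX lay 0.05 from scramble and shCPT-1 -0.53 from it. The higher members were DNAJB11, a co-chaperone (0.24), and CALR, the calcium-binding chaperone calreticulin (0.17), and 1 was left without ETX 1, ETX 3, shCPT-1 2 or shCPT-1 3. Genes controlled by NRF2, the regulator of antioxidant defence, and of glutathione synthesis had the lowest median of all 28 programme lists, at -0.40. Of 24 measured, 16 were lower and 1 was higher (70.8% called). TXNRD1, a thioredoxin reductase, read 12.27, 12.25 and 12.22 in shCPT-1, 13.14, 13.07 and 13.14 with ETX and 12.34, 12.36 and 12.36 in scramble (-0.87 ± 0.04, adjusted p = 6.2e-09). GCLC, the catalytic subunit of the first enzyme of glutathione synthesis, read 9.01, 8.96 and 8.92 in shCPT-1 against 9.84, 9.75 and 9.83 with ETX (-0.85 ± 0.07). AKR1C3 and AKR1C1, aldo-keto reductases with near-identical paralogs that probe sets may not separate, differed by -1.28 and -1.20. The 1 higher member was ABCC1, a drug and glutathione-conjugate exporter (0.39), and there were 2 without shCPT-2 1.

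Cytokine and other genes that respond to NF-kB, a factor of inflammation, were lower in shCPT-1 in 18 of 25 members and higher in 4. With 88% called, beside 42.7% of all tested genes, the list had a median difference of -0.33. Promoters of 2 neutrophil-attracting chemokines, CXCL3 and CXCL2, are shown because they were among the 5 called members with the smallest p, and both hold the NF-kB element GGAATTTCC, printed in capitals. They come from the same RefSeq table and build, at chr4:74038640-74038939 for CXCL3 and chr4:74099146-74099445 for CXCL2, both on the minus strand.
CXCL3: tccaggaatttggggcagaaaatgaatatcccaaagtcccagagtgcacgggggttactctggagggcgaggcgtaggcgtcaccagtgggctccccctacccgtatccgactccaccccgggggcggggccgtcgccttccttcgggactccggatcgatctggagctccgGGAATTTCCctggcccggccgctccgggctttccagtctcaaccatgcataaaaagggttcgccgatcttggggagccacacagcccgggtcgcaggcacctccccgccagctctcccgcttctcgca
CXCL2: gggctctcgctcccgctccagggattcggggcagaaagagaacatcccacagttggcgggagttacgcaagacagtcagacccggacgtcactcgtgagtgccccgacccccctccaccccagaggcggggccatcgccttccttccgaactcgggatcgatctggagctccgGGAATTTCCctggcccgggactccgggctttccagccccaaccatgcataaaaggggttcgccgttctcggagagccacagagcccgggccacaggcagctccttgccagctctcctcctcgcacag
The element begins 78 bases before the start in CXCL3 and 77 in CXCL2. Searched on both strands, it was in 8 of the 19 list genes with a promoter sequence (42.1%), beside 0.56% of all genes with such a sequence. Of the 15 lower list genes among them 7 held it. The list is of genes that respond to NF-kB, so a higher share can come from that choice and was not tested.

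CXCL3 read 7.51, 7.52 and 7.51 in shCPT-1, 9.50, 9.51 and 9.56 with ETX and 8.79, 8.89 and 9.04 in scramble, a difference of -2.01 ± 0.06 (adjusted p = 2.81e-10). CXCL2 read 9.10, 8.92 and 9.03 in shCPT-1, 10.73, 10.76 and 10.78 with ETX and 9.89, 10.12 and 10.11 in scramble (-1.74 ± 0.07, adjusted p = 3.43e-09). For both chemokines scramble lay between the groups, with shCPT-1 lower and ETX higher than it. IL6, the cytokine interleukin-6, read 7.93, 7.90 and 7.97 in shCPT-1 against 9.02, 8.93 and 9.10 with ETX (-1.08 ± 0.06), and scramble lay at 7.71 to 7.83, below both. PTGS2, the inducible cyclooxygenase, read 7.54, 7.48 and 7.66 in shCPT-1, 9.52, 9.21 and 9.49 with ETX and 7.44, 7.37 and 7.24 in scramble (-1.85 ± 0.10, adjusted p = 2.24e-08). The higher members were the cytokines LIF (0.45) and IL11 (0.28), TNFAIP2 (0.30) and NFKBIZ (0.29), an atypical inhibitor of NF-kB. Leukocyte markers had a summed intensity of 316 to 328 units in shCPT-1 and 286 to 314 with ETX. Of the 6 leukocyte markers 1 was above the array median on all 6 arrays, and their part in the counts of the NF-kB list was not tested.

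Prostaglandin genes held both extremes, with 33.3% called beside 42.7% of all tested genes. PLA2G4A, the phospholipase that frees arachidonic acid, was lower in shCPT-1 (-0.68 ± 0.10), as was PTGS2, while PTGES was higher, and the other 6 of 9 measured genes did not pass. Without ETX 1 or ETX 3, 2 were higher. Interferon-stimulated genes split, 11 of 36 higher and 12 lower (63.9% called), with a median difference of 0.01. TRIM22, an antiviral ubiquitin ligase, read 6.26, 6.43 and 6.33 in shCPT-1, 8.27, 8.18 and 8.05 with ETX and 7.28, 7.39 and 7.46 in scramble (-1.83 ± 0.07, adjusted p = 2.56e-09). IRF1, an interferon regulatory factor, was lower by -1.07 ± 0.05. IFIT1, an antiviral RNA-binding protein, read 9.20, 9.21 and 9.12 in shCPT-1, 7.87, 7.84 and 7.69 with ETX and 8.58, 8.74 and 8.70 in scramble (1.38 ± 0.09, adjusted p = 1.8e-07). ISG20, an exonuclease (1.28 ± 0.08), and OASL, of the oligoadenylate synthetase family (1.01 ± 0.07), were higher too.

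**Figure D4:**
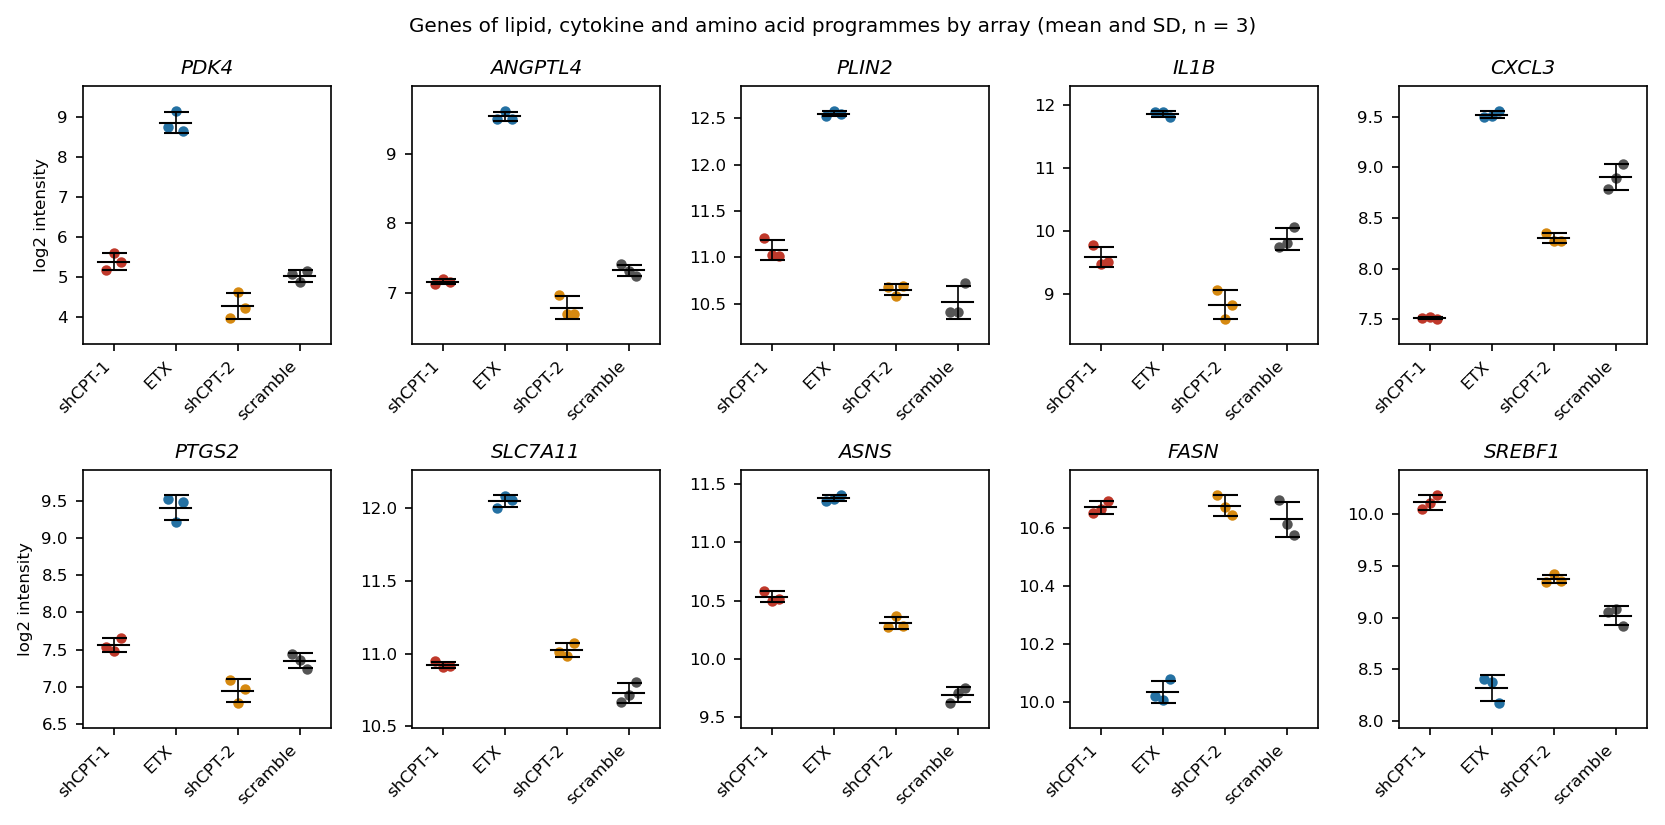
Log2 intensity (y axis) of 10 genes on each array, by group (x axis), with points for arrays and bars for the mean and SD of 3 arrays. PDK4, ANGPTL4, IL1B, PTGS2 and SLC7A11 are highest with ETX, CXCL3 is lowest in shCPT-1, FASN is low with ETX alone, and SREBF1 is highest in shCPT-1 and lowest with ETX.

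Mitosis genes were higher in shCPT-1 in 30 of 36 measured members and lower in 1, with the highest median of the 28 lists, 0.32. That is 86.1% called, beside 42.7% of all tested genes. The list median against scramble was 0.04 in shCPT-1 and -0.24 with ETX. AURKB, the Aurora kinase of the chromosomal passenger complex, read 11.38, 11.33 and 11.45 in shCPT-1, 10.14, 10.15 and 10.22 with ETX and 10.43, 10.42 and 10.56 in scramble (1.22 ± 0.05, adjusted p = 3.32e-09). UBE2C, the ubiquitin-conjugating enzyme of the anaphase-promoting complex, read 12.68, 12.64 and 12.67 in shCPT-1, 12.05, 12.04 and 12.17 with ETX and 12.52, 12.53 and 12.56 in scramble (0.58 ± 0.05). TPX2, a spindle assembly factor, and CDC20, an activator of the anaphase-promoting complex, were higher by 0.44 and 0.42. For CDC20 the shCPT-1 arrays at 12.45 to 12.53 overlapped scramble at 12.47 to 12.52. KIF4A, a chromokinesin, was the 1 lower member, at 10.08, 10.02 and 10.04 in shCPT-1 against 10.70, 10.73 and 10.66 with ETX (-0.65 ± 0.06).

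DNA replication genes did not share that direction, with 13 of 37 higher, 8 lower (56.8% called) and a median difference of 0.03. LIG1, a DNA ligase, was higher in shCPT-1 by 0.34 and FEN1, the flap endonuclease, and CDC6, a licensing factor, were lower by -0.40 and -0.34. GINS2, a subunit of the replicative helicase, was higher by 0.51, and its call was lost without cross-hybridising kinds of probe sets. The count of lower members was 5 without ETX 3 or shCPT-1 2 and 4 without both shCPT-1 1 and ETX 3. Of 22 genes of p53-type arrest 2 were higher and 5 lower, 31.8% called, a smaller share than the 42.7% of all tested genes. The count of lower members in this p53-type list was 3 without ETX 2 or shCPT-1 2. GADD45A, a stress and growth arrest gene, read 10.77, 10.73 and 10.77 in shCPT-1 against 11.42, 11.44 and 11.54 with ETX (-0.71 ± 0.05).

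**Figure D5:**
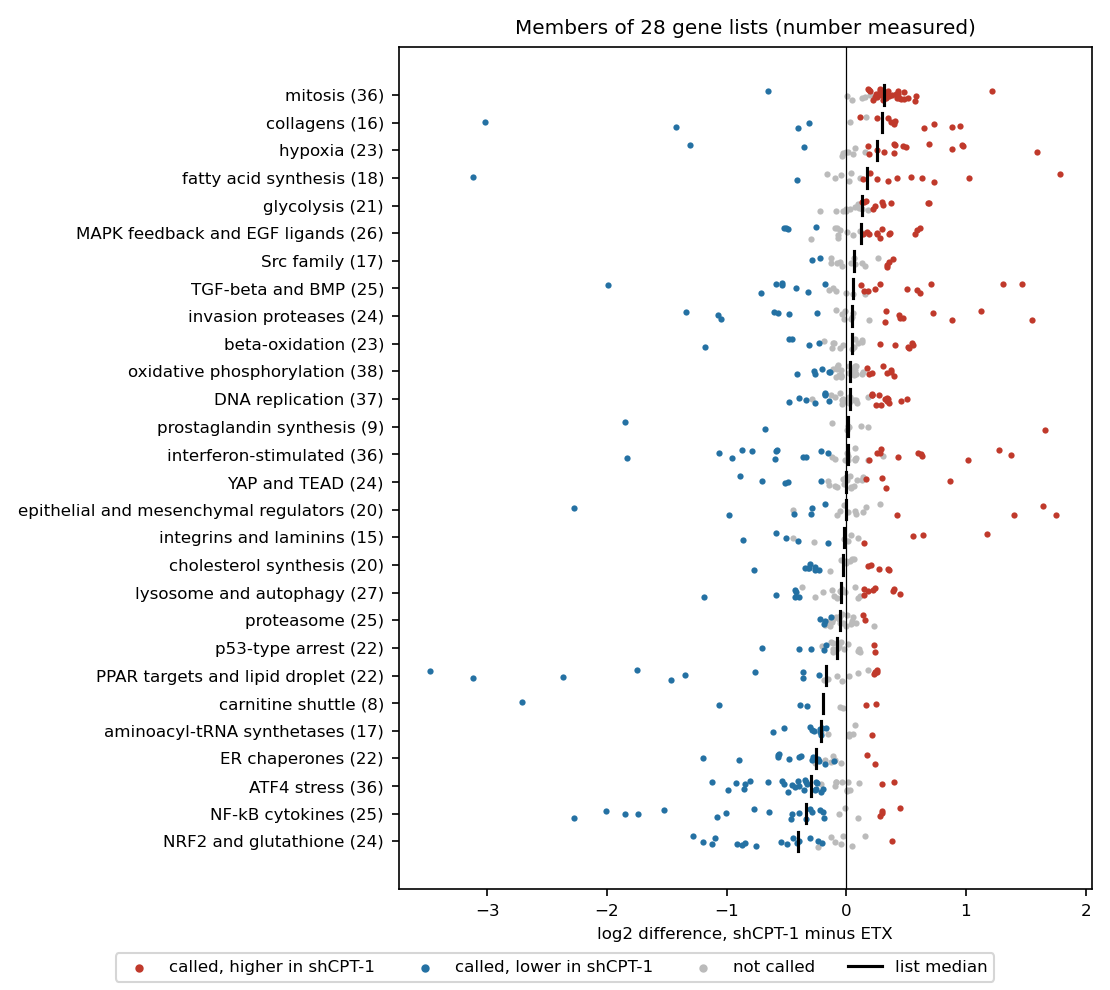
Log2 difference, shCPT-1 minus ETX (x axis), of each measured member of 28 gene lists (rows, with the number measured), ordered by the list median (black bar) and coloured by call. The mitosis list has the highest median, 0.32, and the NRF2 and glutathione list the lowest, -0.40.

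Genes of invasion and matrix differed gene by gene. Of 24 proteases and inhibitors of invasion 9 were higher and 7 lower, 66.7% called beside 42.7% of all tested genes. MMP1, the interstitial collagenase, read 11.72, 11.66 and 11.71 in shCPT-1, 13.06, 13.02 and 13.03 with ETX and 12.15, 12.23 and 12.28 in scramble (-1.34 ± 0.04, adjusted p = 6.22e-10). SERPINE2, an inhibitor of urokinase and thrombin, was lower by -1.07 ± 0.04 and ADAMTS6, a secreted metalloproteinase, by -1.05 ± 0.07. ADAM8, a membrane metalloproteinase, was higher like PLAU, at 10.45, 10.54 and 10.54 in shCPT-1 against 9.33, 9.35 and 9.48 with ETX (1.13 ± 0.05). Another kept probe set of ADAM8 gave 0.26. Of 16 collagens 10 were higher and 4 lower (87.5% called), with a median difference of 0.30. COL5A1 (0.95 ± 0.07) and COL18A1 (0.73 ± 0.06) were higher in shCPT-1, as was COL6A1 (0.89), whose call was lost without cross-hybridising kinds of probe sets. COL4A5, a basement membrane collagen, read 4.99, 5.05 and 5.16 in shCPT-1 against 8.11, 8.15 and 8.0 with ETX (-3.02 ± 0.17), with shCPT-1 under the array medians, and COL6A3 was lower by -1.42 ± 0.08, COL5A2 by -0.40 and COL12A1 by -0.31. Fibroblast markers had a summed intensity of 569 to 597 units in shCPT-1 and 521 to 536 with ETX. Their part in the collagen counts was not tested.

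Of 15 integrins and laminins 4 were higher and 5 lower, 60% called beside 42.7% of all tested genes. ITGB4, the integrin of hemidesmosomes, read 8.18, 8.25 and 8.36 in shCPT-1, 7.10, 7.02 and 7.13 with ETX and 7.53, 7.404 and 7.15 in scramble (1.18 ± 0.08), and LAMA5 was higher by 0.64. Other kept probe sets of ITGB4 gave 0.39 and 0.004. ITGB8, which activates latent TGF-beta, was lower by -0.86, with shCPT-1 under the array medians, and LAMB1 was lower by -0.50. Of 25 genes of TGF-beta and BMP signalling 11 were higher and 8 lower (76% called). ID3, like ID1 a target of BMP receptors, read 9.12, 8.99 and 9.10 in shCPT-1, 7.72, 7.69 and 7.86 with ETX and 8.03, 8.13 and 8.30 in scramble (1.31 ± 0.08, adjusted p = 6.6e-08). The ligand BMP2 went the other way, at 6.06, 6.16 and 6.20 in shCPT-1, under the array medians, against 8.14, 8.08 and 8.18 with ETX (-1.99 ± 0.11, adjusted p = 4.27e-08). SMAD3, a TGF-beta signal transducer (0.71 ± 0.05), and TGFBI, a TGF-beta-induced matrix protein (0.59 ± 0.04), were higher in shCPT-1. Other kept probe sets of SMAD3 gave 0.26 and 0.18. Of 24 YAP and TEAD genes 4 were higher and 5 lower, 37.5% called. The YAP paralog WWTR1 (TAZ) was higher by 0.87 ± 0.06 and the target CCN2 lower by -0.89 ± 0.14.

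Regulators and markers of epithelial and mesenchymal state were higher in 4 and lower in 6 of 20, 50% called beside 42.7% of all tested genes. Their median difference was -0.00166. S100A4, a calcium-binding protein tied to metastasis, read 10.64, 10.49 and 10.49 in shCPT-1, 9.13 on each ETX array and 9.23, 9.17 and 9.24 in scramble (1.41 ± 0.06, adjusted p = 5.28e-09). CLDN4, a tight junction claudin, read 8.62, 8.47 and 8.36 in shCPT-1 against 6.63, 6.701 and 7.19 with ETX (1.64 ± 0.15, adjusted p = 2.31e-06), and CLDN7 was higher by 0.42. L1CAM, given above, was the other higher gene (1.76). Beside EHF, also given above, the lower genes were CDH11, a mesenchymal cadherin (-0.98), CLDN1, another claudin (-0.44), EPCAM, an epithelial adhesion molecule (-0.30), and SNAI2 (-0.29) and ZEB1 (-0.18), repressors of epithelial genes. Markers of luminal breast epithelium moved beside them, with 4 of 10 measured higher and 4 lower (80% called). The keratins KRT19 (0.75), KRT8 (0.74) and KRT18 (0.47) were higher in shCPT-1, and FOXA1 (-0.66) and GATA3 (-0.17), transcription factors of luminal cells, were lower. The summed intensity of that marker list was 14886 to 15287 units in shCPT-1 and 10905 to 11141 with ETX, with 9 of its 13 markers above the array median on all 6 arrays, and its part in the results was not tested. FOXA1 was under the array medians in shCPT-1.

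Of 26 genes of MAPK feedback and EGF ligands 12 were higher and 4 lower, 61.5% called beside 42.7% of all tested genes. FOSL2, an AP-1 subunit (0.61 ± 0.06), DUSP5, an ERK phosphatase (0.58 ± 0.06), and JUND, another AP-1 subunit (0.59 ± 0.07), were higher in shCPT-1. IER3, an immediate early gene (-0.52), and SPRED1, an inhibitor of RAS signalling (-0.51), were lower. Among 27 measured genes of lysosomes and autophagy, 8 were higher and 6 lower (51.9% called). GLA, the alpha-galactosidase, read 9.29, 9.30 and 9.32 in shCPT-1 against 10.49, 10.44 and 10.55 with ETX (-1.19 ± 0.04, adjusted p = 1.24e-09). Src family and partner genes had 4 of 17 higher and 2 lower (35.3% called), and PXN, the adaptor paxillin, differed by 0.39. Proteasome subunits had the lowest share of the 28 programme lists, 2 of 25 higher and 4 lower (24.0%), with 1 higher without ETX 1 or shCPT-1 2 and 2 lower without ETX 3, shCPT-1 2 or shCPT-1 3. Of the line's own 8 markers, MSN, CD44 and EGFR were lower and LGALS1 was higher. The EGFR call (-0.25, adjusted p = 0.0407) was lost when any of several single arrays was left out, with adjusted p up to 0.151 without shCPT-1 1. That call is of the kept EGFR probe set with the highest mean. Tested on their own, other kept probe sets of EGFR passed at -0.27 (adjusted p = 0.00049) and -0.28 (adjusted p = 0.00027). The remaining ones, at 6.15 to 6.99 with ETX, ranged from -0.16 to 0.19 and did not pass. The mean of all kept probe sets of EGFR gave -0.09, which did not pass.

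Some genes stood away from scramble by similar amounts under hairpin and drug. They were chosen as called against scramble the same way in both, by at least 0.6 on the log2 scale, with the 95% interval of the direct difference within 0.5 on either side of 0. Of tested genes, 40 were higher and 13 lower than scramble under that rule, which fixes their agreement. LRATD2 read 9.02, 8.89 and 8.86 in shCPT-1, 8.84, 8.86 and 8.75 with ETX and 7.75, 7.80 and 7.90 in scramble, with an interval of the direct difference of -0.07 to 0.28. DUSP1, a phosphatase of MAP kinases, read 10.62, 10.37 and 10.36 in shCPT-1, 10.46, 10.41 and 10.69 with ETX and 9.18, 9.53 and 9.82 in scramble, with an interval of -0.37 to 0.23. SLCO4A1, an organic anion transporter, was low in both, at 10.88, 10.89 and 10.96 in shCPT-1, 10.72, 10.75 and 10.83 with ETX and 11.69, 11.74 and 11.70 in scramble (interval -0.01 to 0.28). GDF15 read 6.93, 6.93 and 6.88 in shCPT-1, 6.50, 6.74 and 6.61 with ETX and 5.70, 5.86 and 5.73 in scramble, under the array medians. GDF15 was nevertheless called between shCPT-1 and ETX (0.29, adjusted p = 0.0128), as was SPDEF, an epithelial ETS factor (-0.25, adjusted p = 0.0041), so closeness within the interval is not absence of a difference.

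TAF1A, a subunit of the RNA polymerase I factor SL1, and CCNDBP1, a cyclin D-binding protein, were also named as higher in both (0.97 and 0.98 in shCPT-1, 1.04 and 0.93 with ETX). For DUSP1, TAF1A and CCNDBP1 scramble 3, the array that lay apart from its group, was the scramble array nearest to the other groups. FBXO43, an inhibitor of the anaphase-promoting complex, ZBED6, a transcriptional repressor, and PLPP3, a lipid phosphate phosphatase, were named as lower in both, with changes of -0.99, -0.73 and -0.76 in shCPT-1 and -0.81, -0.74 and -0.76 with ETX. The shCPT-2 arrays lay on the same side of scramble for these 10 genes, with changes of 0.50 to 1.27 for the higher ones and -0.70 to -2.62 for the lower ones. Some other kept probe sets did not follow. Against scramble 1 of PLPP3 changed by 0.03 in shCPT-1 and 0.24 with ETX, 1 of LRATD2 by -0.04 and 0.06, and 1 of DUSP1 by -0.13 and -0.09.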

How the data were processed

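Total RNA of MDA231 cells was hybridised to 12 Affymetrix arrays, each carrying 1 biotin-labelled sample. The deposited file holds linear-scale intensities for every probe set and array, and RMA, which corrects background, normalizes arrays to each other and summarizes probes, is the tool named per the submitters' processing notes. Its version and settings, and any genome build, are not stated there.

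Log2 intensities were fitted with limma 3.58.1 (lmFit and eBayes) in R 4.3.3 with data.table (1.17.8), all 12 arrays and 4 group means, with 8 residual and 4.117 prior degrees of freedom and no covariate. Of 54675 probe sets 62 were controls, 41091 had 1 gene symbol, 1801 several and 11721 none. Probe sets above the median of the array on 3 or more arrays were kept, and the one with the highest mean stood for its gene. This gave 12886 genes, 6173 with more than 1 kept probe set. Tests were two-sided and Benjamini-Hochberg adjusted over all genes; exact tests, whose smallest p with 3 arrays a group is 0.1, were not used. The number of arrays limits the precision.

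Labels set which arrays form each group, but the comparison, the 28 programme lists and the 6 marker lists were chosen with earlier results of these data known. Named genes were the 15 largest differences per direction among called genes with separate groups (54.3% of tested genes) and a higher group mean at or above the median gene, up to 5 called members per list by p, the carnitine genes, and up to 5 genes per direction alike in both. Other members that complete a count of 6 or fewer were named after their values were seen. Promoters were RefSeq sequences, and motifs were searched and figures drawn with Python 3.11.15, pandas 2.3.3 and matplotlib 3.10.9. The labels pair no replicates; deviations of same-numbered shCPT-1 and ETX arrays correlated at -0.134, 0.110 and -0.106. Data were also simulated for 12886 genes with each gene's own spread and independent noise. There 83 of 100 genes changed by 0.5 and 98 of 100 changed by 1 (log2) were recovered, with 3 calls among 12686 unchanged genes. The real arrays had correlated deviations (0.61 between scramble 3 and shCPT-1 1), and far more genes were called than were changed in the simulation. Those rates need not hold for the real comparison.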

Additional observations from a re-analysis of the deposited data

How the results depend on the processing

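Under 27 alternatives, 149 of 166 named genes kept their direction and side of the threshold wherever they were read. The call was lost somewhere for 13 and the direction reversed somewhere for 5. Some named genes have kept probe sets of cross-hybridising kinds only, FABP5, ANGPTL4, PLAU, MATN2, ASNS, CXCL2 and FASN among them. They were read under 26 alternatives and have no value without those kinds, so that setting says nothing about them. Several alternatives, such as leaving out a scramble or shCPT-2 array, cannot move a difference and alter only its SE and adjusted p. Testing each probe set on its own reads the same probe set for a named gene. Part of that agreement was therefore fixed in advance. With each probe set tested on its own there were 4588 higher and 4255 lower calls and 221 at least 2-fold lower, because more features were tested. Leaving out each array in turn gave 2403 to 3155 genes higher, 2189 to 2719 lower, 78 to 84 at least 2-fold higher and 144 to 152 at least 2-fold lower, and CPT1A between -2.78 and -2.66. The mean of its probe sets gave -2.14 for CPT1A. Array weights gave 4299 higher and 3497 lower, and the actin signal as a covariate 3349 and 2903. Chosen after seeing the data, leaving out the 4 arrays apart from their group gave 3754 and 3028, and leaving out shCPT-1 1 and ETX 3 alone gave 2800 and 2242. With the replicate number as a replicate block there were 2862 higher and 2476 lower, 81 and 145 of them at least 2-fold, and no named gene lost its call; the samples share only a number.

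Leaving out the cross-hybridising kinds of probe sets, which leaves fewer genes, turned differences to 0.0794 for ACAA2, 0.000997 for POLA2, 0.29 for PSMC2 and -0.0787 for PSMD4. PSMC2 was 0.0785 with the mean of probe sets. Leaving out single arrays put CPT2 between -0.146 and 0.0341, the higher value without shCPT-1 3. Leaving out the cross-hybridising kinds gave 2130 genes higher and 1907 lower, and in lists fewer called members, such as 15 lower of the ATF4 list, 4 higher of fatty acid synthesis and 7 higher of hypoxia. Without the 4 arrays apart from their group, 8 YAP and TEAD genes and 7 epithelial and mesenchymal regulators were higher and 9 proteasome subunits lower. Of the genes alike in both, the interval of GDF15, CCNDBP1, ZBED6 or PLPP3 passed 0.5 under some alternatives. Genes under the array medians in a group have a less certain fold, which signal over background limits. Other kept probe sets are not given above for every named gene. Some of them differed by less, such as 0.17 for PFKFB4 and 0.06 for PXN, which did not pass.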
